A study of Homo sapiens with 6 samples.

Results

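The genes described here are the collagen and laminin chains and a small set of mesenchymal matrix genes expressed in H1, an established line of human embryonic stem cells. They were taken from the count table by symbol: every collagen chain (COL, a number, A, a number), every laminin chain (LAMA, LAMB or LAMC and a number), and FN1, SPARC, VIM, LUM, DCN, POSTN, LOX, TAGLN and ACTA2 where listed. The rule found 55 of 16199 genes: 9 fibrillar collagens, 19 basement membrane genes (type IV, XV and XVIII collagens and laminins), 9 FACIT collagens, which sit on the surface of fibrils, 8 beaded filament and network collagens, 3 transmembrane collagens and 7 mesenchymal and matrix genes. COL3A1, COL6A5, COL6A6, COL10A1, COL11A2, COL17A1, COL19A1, LAMB4, LUM and DCN were not analysed here.

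RNA was measured in 2 samples each of homozygous DICER1 S1344L cells, hemizygous DICER1 S1344L cells and wild-type cells, all on the H1 background. The edited cells were made with CRISPR-Cas9, and the design text calls the change a cancer hotspot of DICER1, the enzyme that cuts microRNA precursors. The labels give no clone, passage or culture matrix and leave unsaid if a genotype's 2 samples came from separate cultures, so every p-value reflects sample-to-sample spread that may be technical only. Listed counts summed to 46152759 and 39565897 in homozygous samples 1 and 2, 39693194 and 51598026 in hemizygous samples 1 and 2, and 52924532 and 38164848 in wild-type samples 1 and 2. Levels are in CPM, read counts scaled to library size with TMM factors, and a pair of values is always for samples 1 and 2 of a genotype in that order.

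Fibrillar collagens are secreted as long procollagen trimers that assemble into the cables of connective tissue, whereas type IV collagen and laminin form the sheet-like basement membrane under epithelia. Pluripotent stem cells are epithelial, rest on a laminin-rich matrix and make laminin chains themselves. Mesenchymal genes such as VIM and FN1 are commonly read together with fibrillar collagens when epithelial cells lose their junctions. MicroRNAs of the miR-29 family are known repressors of many collagen mRNAs, and they reach their targets through the seed at bases 2 to 8.

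The mature miR-29 sequences (RefSeq, GRCh38.p14) are shown because this family shares a single seed, in capitals, whose match is frequent among the collagens. They lie at chr7:130876748-130876769 (miR-29a), chr1:207802450-207802472 (miR-29b) and chr1:207801865-207801886 (miR-29c), all on the minus strand.
miR-29a-3p: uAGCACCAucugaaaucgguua
miR-29b-3p: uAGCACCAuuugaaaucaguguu
miR-29c-3p: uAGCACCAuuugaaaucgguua
The complement of that seed, TGGTGCT, was searched on the sense strand of the longest 3′ UTR of each protein-coding gene in GENCODE 29. All 9 fibrillar collagens held it, 9 of 19 basement membrane genes (47.4%) and 28 of the 55 genes (50.9%), against 2252 of 12979 genes with such a UTR (17.4%). The median 3′ UTR was 1552 bases in the fibrillar collagens, 1322 in the basement membrane genes and 1430 over all genes. A match is a description of the letters and not a shown site of binding, and miRNA levels were not analysed here. The first match in 4 fibrillar and 4 basement membrane genes follows, with the match in capitals and the bases next to it on either side. They lie on chromosomes 17, 7, 2 and 1 (fibrillar, in the order shown) and 13, X, 6 and 1.
COL1A1: agggaatcacTGGTGCTatagaaattg
COL1A2: agaatgttgaTGGTGCTagaagaattt
COL5A2: cctttaatgaTGGTGCTaaaattcttc
COL11A1: tgaatttcttTGGTGCTgtagaaaaca
COL4A2: ctcttccctgTGGTGCTactgtaacag
COL4A5: ctgccgtcaaTGGTGCTactatatatg
LAMA2: tgtattcagaTGGTGCTaattcagact
LAMC1: tctgacacacTGGTGCTattaattatt
In COL1A1, on chromosome 17, the match began at base 923 of a 2213-base 3′ UTR. In COL5A2, on chromosome 2, it began at base 1190 of 2174. The match for let-7 (CTACCTC) was found in 5 of 9 fibrillar collagens, 2 of 19 basement membrane genes and 8 of the 55 genes (14.5%), against 11.3% of genes.

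A pair of promoter windows is shown, that of COL12A1 because its level varied most between samples, and that of COL4A2 because it is shared with COL4A1, whose level is compared with it. RefSeq windows (GRCh38.p14) are 300 bases around the gene's start, and 41 of the 55 genes were matched to one. In the COL12A1 window at chr6:75206004-75206303, minus strand, the capitals mark GGAATG, the core motif of TEAD factors, searched on both strands and present in 14.0% of 35116 promoters and in 4 of the 41 (ACTA2, COL12A1, LAMA2 and SPARC).
COL12A1: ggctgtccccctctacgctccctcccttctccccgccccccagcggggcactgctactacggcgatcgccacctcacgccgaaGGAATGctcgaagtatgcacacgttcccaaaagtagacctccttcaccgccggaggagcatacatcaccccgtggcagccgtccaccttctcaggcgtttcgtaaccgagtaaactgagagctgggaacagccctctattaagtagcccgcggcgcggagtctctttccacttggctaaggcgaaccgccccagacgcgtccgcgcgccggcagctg
COL4A1 and COL4A2 start 127 bases apart on opposite strands of chromosome 13. In the COL4A2 window at chr13:110307034-110307333, plus strand, capitals mark the 226 bases that also belong to the COL4A1 window.
COL4A2: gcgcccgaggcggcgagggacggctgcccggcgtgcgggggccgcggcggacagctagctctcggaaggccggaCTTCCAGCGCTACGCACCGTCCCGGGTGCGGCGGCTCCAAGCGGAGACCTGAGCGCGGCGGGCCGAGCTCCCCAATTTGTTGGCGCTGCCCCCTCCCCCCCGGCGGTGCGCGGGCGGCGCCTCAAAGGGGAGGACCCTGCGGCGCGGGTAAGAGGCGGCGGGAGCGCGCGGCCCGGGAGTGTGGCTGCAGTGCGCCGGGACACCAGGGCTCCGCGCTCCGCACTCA

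Per kilobase of exon, COL6A1, a type VI collagen chain of beaded filaments, was the highest at 105 ± 3.85 CPM per kb in homozygous, 91.8 ± 22.2 in hemizygous and 88.6 ± 12.4 in wild-type samples (SD, n = 2 each). SPARC, a secreted collagen-binding glycoprotein, followed at 68.6 ± 1.20, 81.9 ± 15.7 and 86.3 ± 17.3 CPM per kb in the same order of genotypes. COL18A1, the basement membrane precursor of endostatin, was next at 53.6 ± 3.56, 58.2 ± 6.80 and 58.5 ± 0.0229 CPM per kb. COL6A1 and SPARC overlapped in hemizygous and wild-type samples, so the order of these neighbours was beyond their spread in homozygous samples only. COL15A1 and LAMA4 were the lowest per kilobase. Exon length here is the union of the exons of all transcripts of a gene, which can exceed that of any single mRNA. The order of genes per kilobase therefore depends on the annotation as well as on the reads. The table lists only genes above 0.5 CPM in at least 3 samples, so chains with fewer reads do not appear.

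Summed over its 9 genes, the fibrillar class reached 647 and 618 CPM in the homozygous, 977 and 658 CPM in the hemizygous and 928 and 646 CPM in the wild-type samples. The 19 basement membrane genes summed to 2143 and 1949 CPM in the homozygous, 2406 and 2048 CPM in the hemizygous and 2273 and 2225 CPM in the wild-type samples. The fibrillar sum was thus 0.302 and 0.317 of the basement membrane sum in homozygous samples, 0.406 and 0.321 in hemizygous samples and 0.408 and 0.290 in wild-type samples. These sums are not scaled to gene length, so they are read across samples only. Hemizygous sample 1 and wild-type sample 1 stood above the other 4 samples in this ratio. The homozygous values lay below both hemizygous values and overlapped those of the wild-type samples.

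The same pair of libraries, hemizygous sample 1 and wild-type sample 1, stood apart across all genes: the first principal component held 59.1% of the variance and placed them at -39.8 and -34.5, against 3.15 to 28.5 for the others. Pluripotency markers were high in every library (8 of 8 listed, summed level 7942 to 8599 CPM in the homozygous, 8279 to 8725 in hemizygous and 7638 to 7766 in wild-type samples). Of 8 fibroblast markers, THY1, PDGFRB and S100A4 were listed, and THY1 is also expressed by pluripotent cells (summed level of the 3, 346 and 412 CPM in the homozygous, 357 and 395 CPM in hemizygous, 446 and 490.3 CPM in the wild-type samples). TWIST2, PRRX1, FAP, MEOX1 and TCF21 were not analysed here. DICER1 itself was at 129 and 118 CPM in the homozygous, 118 and 96.4 CPM in the hemizygous and 169 and 126 CPM in the wild-type samples, values that do not read a base substitution. In bulk RNA, fewer cells of a type and less RNA per cell cannot be told apart.

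**Figure D1:**
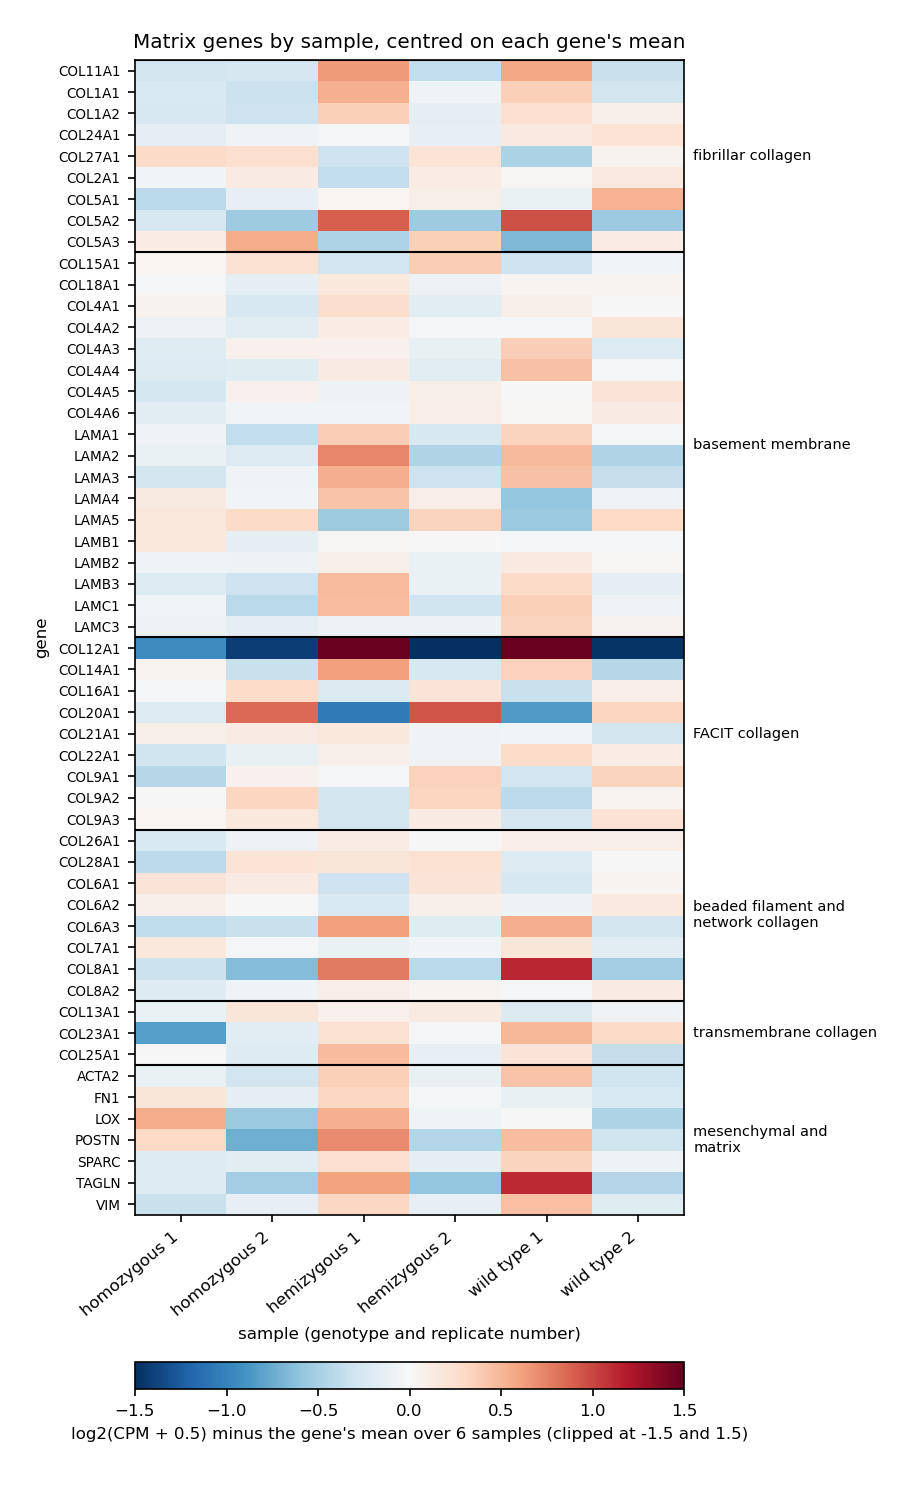
Level of 54 matrix genes (rows, by class) in the 6 samples (columns), as log2(CPM + 0.5) minus the gene's mean over the 6 samples, clipped at -1.5 and 1.5. The darkest red fields, among them COL12A1, COL5A2, COL8A1 and TAGLN, are in hemizygous sample 1 and wild-type sample 1, and LAMA5 and COL20A1 are blue there.

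Homozygous cells were compared with wild-type cells to see whether the mutation on every DICER1 copy moved matrix expression. No gene of the 55 passed the test. edgeR's quasi-likelihood test with Benjamini-Hochberg adjustment called 0 of the 55 genes and 0 of 16199 genes (0.0%), with 1 and 435 genes (2.69%) at an unadjusted p under 0.05. DESeq2 called 10 genes and limma-voom 0, none of them a matrix gene. Of the 55 genes, 38 had a log2 fold change below 0, with a median of -0.18 against -0.0034 over all genes. The median was -0.35 for the fibrillar collagens (7 of 9 below 0), -0.18 for the basement membrane genes (15 of 19) and -0.35 for the mesenchymal and matrix genes (5 of 7). This tilt moved with wild-type sample 1: without it 27 of the 55 genes were below 0. The medians were then 0.012 for the fibrillar, -0.085 for the basement membrane and 0.13 for the mesenchymal and matrix genes. That fit set both homozygous samples against wild-type sample 2 alone, so replicate numbers were unbalanced in it. With replicate number as a term in edgeR, 38 of the 55 were below 0. The medians of the 3 classes were then -0.32, -0.16 and -0.31. Without homozygous sample 1, 39 were below 0. The part of the replicate difference in this tilt was not tested.

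COL23A1, a transmembrane collagen with a shed ectodomain, had the lowest p of the 55. It was at 9.08 and 14.8 CPM in the homozygous, 19.5 and 16.4 CPM in the hemizygous and 23.5 and 20.2 CPM in the wild-type samples. The 3 genotypes did not overlap, and both homozygous samples were the lowest. The log2 fold change for homozygous against wild type was -0.88 ± 0.25 (SE), with an unadjusted p of 0.0113 and an edgeR adjusted p of 1.00. A DESeq2 fit blocked on replicate number, chosen after the data were seen, gave an adjusted p of 0.0175, and over all alternatives the adjusted p ran from 0.0175 to 1.00.

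COL1A1, a chain of type I collagen, the main fibre of skin and bone, was at 190.2 and 179 CPM in the homozygous, 324 and 213 CPM in the hemizygous and 285 and 184 CPM in the wild-type samples. Its partner COL1A2 was at 99.2 and 94.1 CPM in the homozygous, 150.2 and 105 CPM in the hemizygous and 139.5 and 123 CPM in the wild-type samples. COL1A2 did not overlap between homozygous and wild-type samples, and COL1A1 did. For COL1A2 the log2 fold change of homozygous against wild type was -0.44 ± 0.19 (SE, unadjusted p = 0.0548 in edgeR). Between homozygous and hemizygous samples neither chain overlapped, at -0.54 ± 0.27 for COL1A1 and -0.40 ± 0.19 for COL1A2 on the log2 scale.

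Among the collagens that start fibrils, COL5A1, a chain of type V, was at 20.5 and 25.1 CPM in the homozygous, 27.9 and 29.0 CPM in the hemizygous and 25.5 and 39.3 CPM in the wild-type samples. Homozygous values were all below the others, by -0.51 ± 0.23 on the log2 scale against wild type (unadjusted p = 0.0633). Its partner COL5A2 was at 107 and 87.6 CPM in the homozygous, 236 and 87.1 CPM in the hemizygous and 247 and 86.7 CPM in the wild-type samples. Sample 2 of all genotypes gave close to the same COL5A2 level, while sample 1 stood far above it in hemizygous and wild-type samples. With this spread within genotypes, the COL5A2 log2 fold change of -0.77 ± 0.58 against wild type had a wide error. COL11A1, which starts cartilage fibrils, showed the same layout at 67.1 and 67.9 CPM in the homozygous, 127 and 62.9 CPM in the hemizygous and 121 and 64.5 CPM in the wild-type samples. COL2A1, the cartilage fibre, was at 26.2 and 29.5 CPM in the homozygous, 20.9 and 29.4 CPM in the hemizygous and 27.5 and 30.1 CPM in the wild-type samples. COL24A1, a minor fibrillar chain, was at 2.62 and 2.83 CPM in the homozygous, 2.92 and 2.68 CPM in the hemizygous and 3.34 and 3.48 CPM in the wild-type samples, both edited genotypes below wild type without overlap.

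Type IV collagen is the scaffold of the basement membrane, and none of its chains passed the genotype test. COL4A1 was at 279 and 229 CPM in the homozygous, 323 and 241 CPM in the hemizygous and 287 and 267 CPM in the wild-type samples. COL4A2, which starts head to head with it in the window shown above, was at 239.7 and 228 CPM in the homozygous, 276 and 252 CPM in the hemizygous and 249 and 289.9 CPM in the wild-type samples. COL4A2 did not overlap between homozygous and wild-type samples, and its log2 fold change was -0.20 ± 0.14 (SE). Their ratio per kilobase, COL4A1 over COL4A2, was 1.52 and 1.31 in homozygous, 1.53 and 1.26 in hemizygous and 1.51 and 1.21 in wild-type samples, higher in sample 1 of every genotype. The size of this ratio rests on exon lengths of 14738 bases for COL4A1 and 19293 for COL4A2, so it is read across samples only. The X-linked chains COL4A5 and COL4A6 also start head to head, 380 bases apart, or 1416 bases by another listed start of COL4A6. COL4A5 was at 40.8 and 51.5 CPM in the homozygous, 46.4 and 52.3 CPM in the hemizygous and 48.9 and 56.1 CPM in the wild-type samples. COL4A6 was at 27.6 and 30.1 CPM in the homozygous, 30.2 and 33.1 CPM in the hemizygous and 31.5 and 33.8 CPM in the wild-type samples. Their log2 fold changes against wild type were -0.19 ± 0.17 and -0.18 ± 0.13 in homozygous samples (SE). COL4A6 did not overlap between homozygous and wild-type samples, the homozygous values being lower, and COL4A5 did. COL18A1 was at 478 and 435 CPM in the homozygous, 537 and 455 CPM in the hemizygous and 499 and 498 CPM in the wild-type samples, with a log2 fold change of -0.13 ± 0.14.

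Among laminins, LAMA1, the alpha chain of the early embryo, was at 178 and 142 CPM in the homozygous, 237 and 155 CPM in the hemizygous and 232 and 179.6 CPM in the wild-type samples. LAMA5, the alpha chain of the laminins on which stem cells are commonly grown, was at 270.0 and 294 CPM in the homozygous, 166 and 303 CPM in the hemizygous and 164 and 297 CPM in the wild-type samples. Homozygous LAMA1 lay below wild type without overlap (-0.36 ± 0.24), whereas LAMA5 overlapped (0.29 ± 0.35). LAMB1, a beta chain, was the steadiest of the named laminins at 149 and 119 CPM in the homozygous, 134 and 133 CPM in the hemizygous and 131 and 129 CPM in the wild-type samples. LAMC1, the gamma chain of most laminins, was at 252 and 197 CPM in the homozygous, 358 and 211 CPM in the hemizygous and 333 and 249 CPM in the wild-type samples. LAMC3, another gamma chain, was at 31.2 and 30.3 CPM in the homozygous, 31.3 and 31.4 CPM in the hemizygous and 41.9 and 34.6 CPM in the wild-type samples. Both edited genotypes lay below wild type for LAMC3, by -0.31 ± 0.14 in homozygous and -0.29 ± 0.14 in hemizygous samples (unadjusted p = 0.0672 and 0.0878), comparisons that share the wild-type samples. LAMA4 was at 1.87 and 1.60 CPM in the homozygous, 2.40 and 1.80 CPM in the hemizygous and 0.945 and 1.59 CPM in the wild-type samples, higher in both edited genotypes without overlap though narrowly.

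Homozygous and wild-type samples did not overlap at 22 of the 55 genes, 17 lower and 5 higher in homozygous samples. Over all genes 13.6% were lower and 14.2% higher without overlap. The 5 higher were COL6A1, COL15A1, COL21A1, COL27A1 and LAMA4. COL22A1, a FACIT collagen of muscle and tendon junctions, was lower at 6.26 and 7.21 CPM in the homozygous, 8.29 and 7.50 CPM in the hemizygous and 9.56 and 8.49 CPM in the wild-type samples. With 2 samples a genotype, an exact permutation test for a single gene cannot give a two-sided p under 0.333.

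None of the 7 mesenchymal and matrix genes passed the genotype test. FN1, the fibronectin of early matrices, was at 621 and 494 CPM in the homozygous, 676 and 538 CPM in the hemizygous and 506 and 467 CPM in the wild-type samples. SPARC was at 327 and 336 CPM in the homozygous, 449 and 342 CPM in the hemizygous and 476 and 358 CPM in the wild-type samples. VIM, an intermediate filament of mesenchymal cells, was at 149 and 171 CPM in the homozygous, 232 and 172 CPM in the hemizygous and 255 and 165 CPM in the wild-type samples. FN1 overlapped between homozygous and wild-type samples and SPARC did not (-0.33 ± 0.19). LOX, the enzyme that crosslinks collagen, was at 4.60 and 1.87 CPM in the homozygous, 4.51 and 2.81 CPM in the hemizygous and 2.97 and 2.02 CPM in the wild-type samples. TAGLN, an actin-binding protein of smooth muscle, was at 74.5 and 59.7 CPM in the homozygous, 131 and 57.3 CPM in the hemizygous and 187 and 63.1 CPM in the wild-type samples. ACTA2, smooth muscle actin, was at 3.33 and 2.86 CPM in the homozygous, 4.75 and 3.30 CPM in the hemizygous and 5.03 and 2.84 CPM in the wild-type samples. All 3 overlapped between genotypes.

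**Figure D2:**
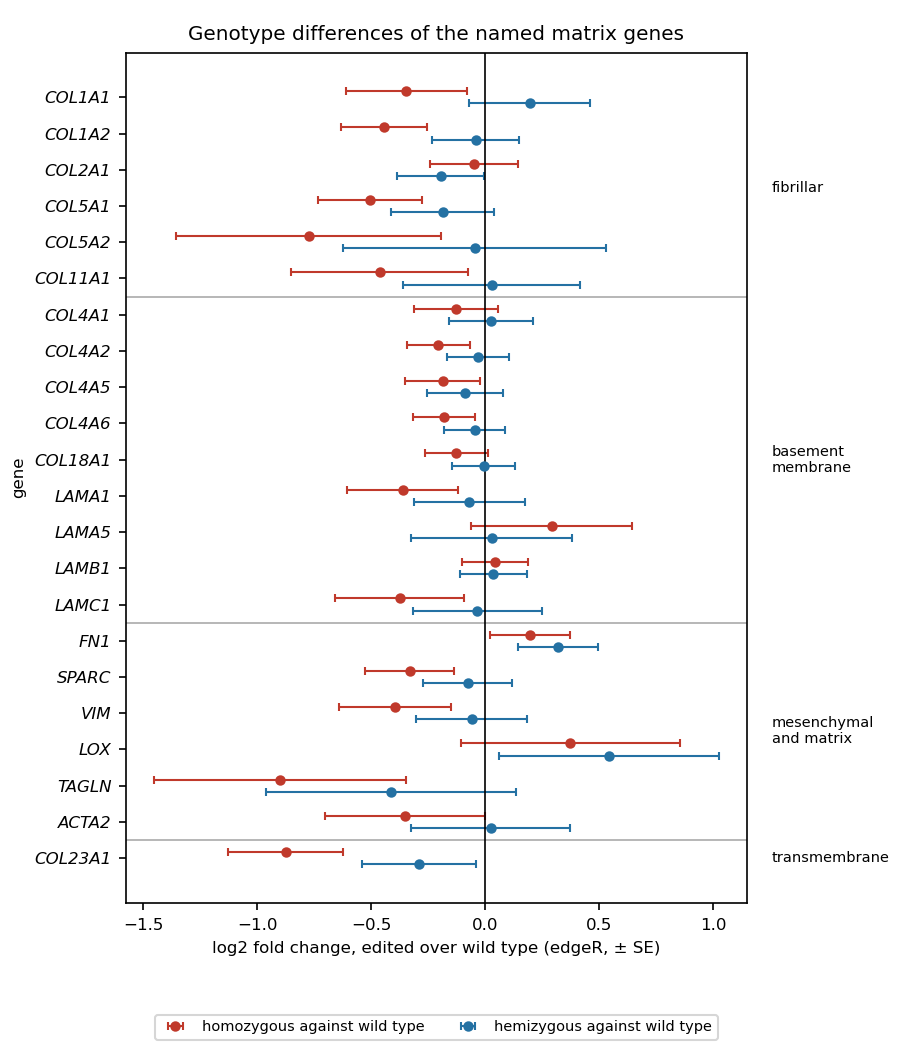
Log2 fold change of 22 named genes, edgeR estimate with an SE derived from its test statistic as bars, for homozygous (red, upper point) and hemizygous (blue, lower point) against wild-type samples. Most red points lie left of 0 and most blue points lie near it, COL23A1 and TAGLN are the farthest left at -0.88 and -0.90, and no gene passed the adjusted threshold.

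Hemizygous cells had a median log2 fold change near 0 that changed sign with single libraries. Their label leaves unsaid whether the other DICER1 copy is deleted or disrupted. The sample descriptions shorten the genotype to pmfs, beside pmpm for homozygous cells, and do not explain either. edgeR called 0 of the 55 genes and 0 of all genes (0.0%), with 0 and 141 (0.87%) at an unadjusted p under 0.05, DESeq2 called 7 genes and limma-voom 0, and none was a matrix gene. The median log2 fold change against wild type was 0.027 over the 55 genes (25 below 0), -0.041 for the fibrillar collagens and -0.0058 for the basement membrane genes. Without hemizygous sample 1 the median was -0.13 (33 below 0), at -0.19 for the basement membrane and -0.28 for the mesenchymal and matrix genes. Without wild-type sample 1 it was 0.11 (21 below 0), at 0.085 for the basement membrane genes, and all 7 mesenchymal and matrix genes were above 0. Without wild-type sample 2 it was -0.074 (30 below 0). LAMA4 had the lowest p at 0.74 ± 0.35 (unadjusted p = 0.0765), and FN1 followed LAMC3 at 0.32 ± 0.18 (unadjusted p = 0.114) with both hemizygous samples above both wild-type samples. COL13A1, a transmembrane collagen of nerve-muscle contacts, was at 24.8 and 30.2 CPM in the homozygous, 27.7 and 29.1 CPM in the hemizygous and 22.8 and 25.5 CPM in the wild-type samples. Hemizygous and wild-type samples did not overlap at 5 genes higher (COL13A1, COL28A1, FN1, LAMA4 and LAMB1) and 4 lower (COL22A1, COL23A1, COL24A1 and LAMC3), against 8.13% higher and 9.21% lower over all genes.

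Set against hemizygous cells, homozygous cells had 41 of the 55 genes below 0, including all 7 mesenchymal and matrix genes, with a median of -0.21 against -0.00035 over all genes. edgeR called 0 of the 55 and 0 of all genes (0.0%), with 0 and 124 (0.765%) at an unadjusted p under 0.05, while DESeq2 called 10 genes and limma-voom 0, none a matrix gene. The fibrillar median was -0.32 and the basement membrane median -0.15. Without hemizygous sample 1, 32 of the 55 were below 0, 3 of them among the 7 mesenchymal and matrix genes, and the medians were -0.0092 and 0.0050. The genotypes did not overlap at 15 genes lower and 2 higher (COL7A1 and COL27A1) in homozygous samples, against 10.4% lower and 11.0% higher over all genes. COL12A1 (-2.98 ± 1.68 in homozygous against wild-type samples) and COL6A3 were among the 5 genes of lowest p between homozygous and hemizygous samples, at -3.31 ± 1.71 and -0.65 ± 0.36, and in both hemizygous sample 1 was the highest of the 4 samples. Without it COL12A1 was at 0.81 ± 1.23 and COL6A3 at -0.17 ± 0.35 against hemizygous samples. Without wild-type sample 1, COL12A1 was at 0.33 ± 1.51 and COL6A3 at -0.079 ± 0.37 against wild-type samples, where the value of COL6A3 over all samples was -0.58 ± 0.36.

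Differences that passed the test in these genes lay between samples 1 and 2 of the genotypes. Within genotype, replicate 1 was set against replicate 2, to see which matrix genes move with the replicate number, the only other label the samples share. edgeR called 20 of the 55 genes, 13 higher and 7 lower in replicate 1, against 20.5% of all genes in either direction, 12.0% higher and 8.5% lower. Without the homozygous samples 34 of the 55 were called, 22 higher and 12 lower, including all 20, against 38.6% of all genes, 20.3% higher and 18.3% lower. Without the hemizygous samples or without the wild-type samples 0 were called, with 2 and 0 calls over all genes. At an unadjusted p under 0.05 in edgeR were 21 of the 55 without the hemizygous samples (18.9% of all genes) and 24 without the wild-type samples (25.6% of all genes).

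COL12A1 had the widest span of the 55. This FACIT collagen, which lies along type I fibrils and is found in tendon and other tissues under load, was at 264 CPM in hemizygous sample 1 and 7.84 CPM in hemizygous sample 2, and at 205 CPM in wild-type sample 1 and 10.9 CPM in wild-type sample 2. Homozygous samples 1 and 2 were at 16.0 and 11.4 CPM. Replicate 1 exceeded replicate 2 by 1.40-fold in homozygous, 33.7-fold in hemizygous and 18.8-fold in wild-type samples. The log2 fold change of replicate 1 over replicate 2 was 3.44 ± 0.86 (SE, edgeR adjusted p = 0.0335), and 4.65 ± 0.17 without the homozygous samples (edgeR adjusted p = 9.56e-07). It did not pass without the hemizygous samples, at 2.39, or without the wild-type samples, at 2.82 (edgeR adjusted p = 0.157 in both).

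COL14A1, the FACIT relative of COL12A1, was at 149 and 114 CPM in the homozygous, 221 and 122 CPM in the hemizygous and 183 and 107 CPM in the wild-type samples. It had the lowest p of the replicate comparison at a log2 fold change of 0.67 ± 0.10 (edgeR adjusted p = 0.0127), higher in replicate 1 in all 3 genotypes. COL5A2 came to 1.09 ± 0.22 (edgeR adjusted p = 0.0212), from a 2.71-fold excess in hemizygous and 2.85-fold in wild-type samples, against 1.23-fold in homozygous samples. COL8A1, a network collagen of vessels and cornea, was at 1.45 and 1.06 CPM in the homozygous, 3.70 and 1.35 CPM in the hemizygous and 4.84 and 1.20 CPM in the wild-type samples. Its log2 fold change was 1.35 ± 0.29 (edgeR adjusted p = 0.0241).

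POSTN, the matricellular protein periostin, was at 1.87 and 0.665 CPM in the homozygous, 2.66 and 0.930 CPM in the hemizygous and 2.18 and 1.07 CPM in the wild-type samples. Replicate 1 exceeded replicate 2 for POSTN by 2.82-fold in homozygous, 2.86-fold in hemizygous and 2.03-fold in wild-type samples, and its log2 fold change was 1.34 ± 0.21 (edgeR adjusted p = 0.0127). For LOX the folds were 2.46, 1.61 and 1.47 in the same order (0.84 ± 0.20, edgeR adjusted p = 0.0289). Whether such folds differ between genotypes was not tested. TAGLN rose in replicate 1 by 1.03 ± 0.21 on the log2 scale (edgeR adjusted p = 0.0212), 2.28-fold in hemizygous and 2.96-fold in wild-type samples against 1.25-fold in homozygous samples. VIM and SPARC did not pass over 6 samples (edgeR adjusted p = 0.199 and 0.117) and passed without the homozygous samples (edgeR adjusted p = 0.00155 and 0.00545).

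The 7 genes lower in replicate 1 were LAMA5, COL5A3, COL16A1, COL20A1, COL9A1, COL9A2 and COL9A3. COL9A1, COL9A2 and COL9A3 make up type IX collagen, which coats cartilage fibrils, and all 3 fell. COL9A3 was at 193 and 212 CPM in the homozygous, 156 and 205 CPM in the hemizygous and 159 and 220.2 CPM in the wild-type samples. COL20A1, another FACIT collagen, was at 1.26 and 3.13 CPM in the homozygous, 0.469 and 3.40 CPM in the hemizygous and 0.617 and 2.02 CPM in the wild-type samples. It fell by 1.89 on the log2 scale with an SE of 0.30 (edgeR adjusted p = 0.0134), in all 3 genotypes. Thus FACIT collagens went both ways, with 2 called higher and 5 lower of 9, while of the fibrillar collagens COL1A1 and COL5A2 were called higher and COL5A3 lower. Of the 19 basement membrane genes, LAMA1, LAMA2 and LAMC1 were among those called higher, and LAMA5 was called lower. LAMA5, COL9A3 and TAGLN overlap genes on the opposite strand (ADRM1, TCFL5 and PCSK7), whose reads cannot be told apart from theirs.

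**Figure D3:**
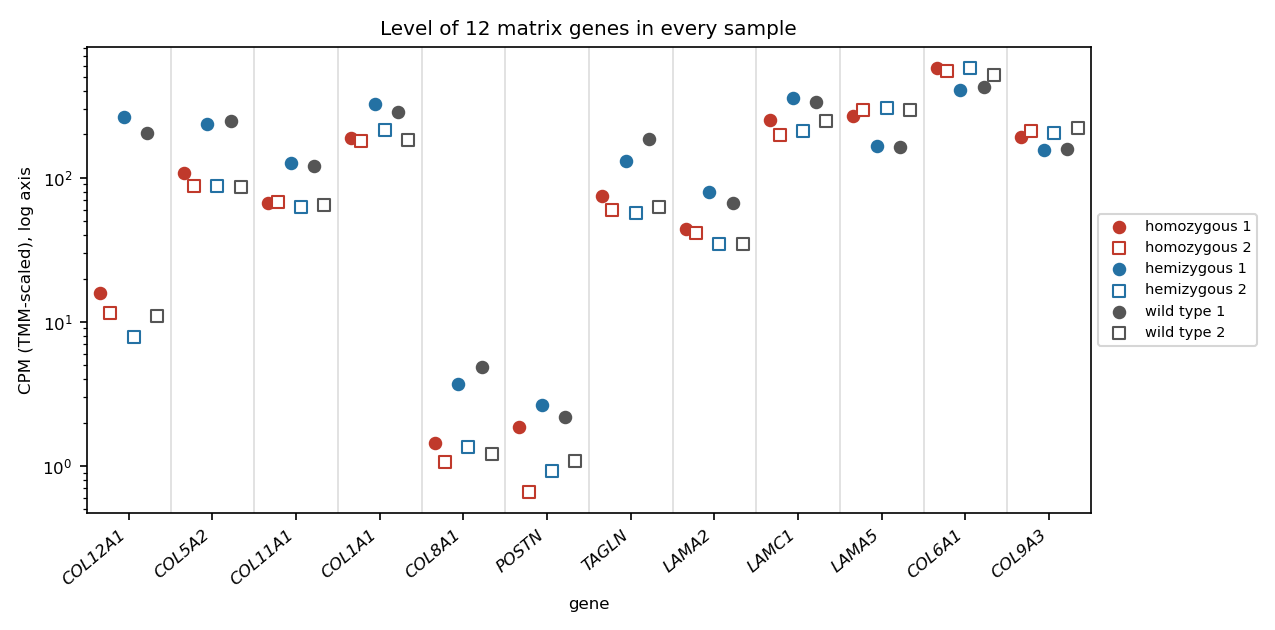
CPM (log axis) of 12 genes in every sample, with homozygous in red, hemizygous in blue and wild type in grey, filled circles for replicate 1 and open squares for replicate 2. The filled blue and grey points stand above the rest for COL12A1 (264 and 205 CPM) to LAMC1 and below the rest for LAMA5, COL6A1 and COL9A3, while both red points lie near the open squares for most genes.

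Past 2-fold between the 2 samples of a genotype were 3 of the 55 genes in homozygous (2.27% of all genes), 9 in hemizygous (6.08%) and 6 in wild-type samples (5.43%). In homozygous samples 2 of these were higher and 1 lower in replicate 1 (0.704% and 1.57% of all genes). In hemizygous samples 7 were higher and 2 lower (2.48% and 3.61%), and in wild-type samples 5 were higher and 1 lower (2.11% and 3.33%). The median log2 ratio of replicate 1 over replicate 2 for the mesenchymal and matrix genes was 0.32 in homozygous, 0.52 in hemizygous and 0.63 in wild-type samples. For the fibrillar collagens it was -0.017, 0.13 and -0.061, and for the basement membrane genes 0.071, 0.24 and 0.13, in the same order. Around a fibrillar median near 0, hemizygous chains spread from -0.91 (COL5A3) to 1.44 (COL5A2) and wild-type chains from -0.87 to 1.51.

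**Figure D4:**
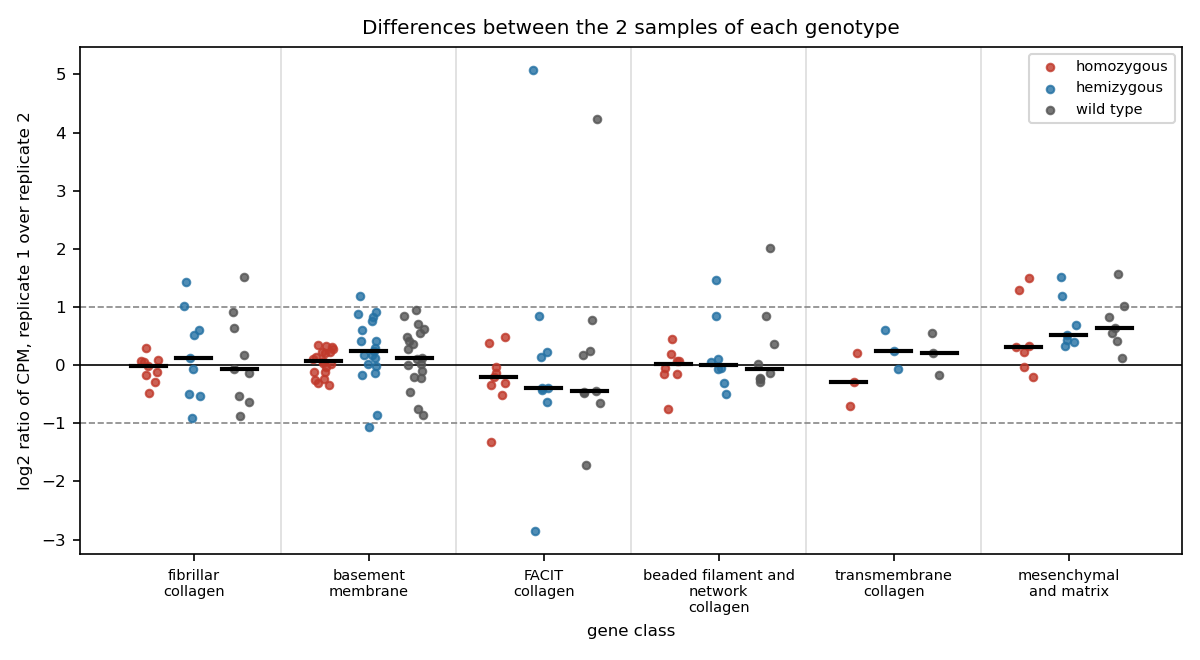
Log2 ratio of CPM, replicate 1 over replicate 2, for each of the 55 genes by class, in homozygous (red), hemizygous (blue) and wild-type (grey) samples, with the class median as a black bar and 2-fold as dashed lines. The outermost points are COL12A1 (33.7-fold in hemizygous and 18.8-fold in wild-type samples), and homozygous genes mostly stay within 2-fold.

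Within chain families, the make-up is given as the share of each chain in the summed CPM per kb. These shares depend on the union exon lengths and are not measured ratios of chains in a trimer. LAMA5 made up 54.0% and 60.2% of the laminin alpha chains in homozygous, 33.0% and 60.7% in hemizygous and 34.4% and 57.7% in wild-type samples. LAMA1 took 32.0% and 26.2% in homozygous, 42.4% and 28.0% in hemizygous and 43.8% and 31.5% in wild-type samples, and LAMA2, the muscle alpha chain, 12.2% and 11.6%, 21.7% and 9.63%, and 19.3% and 9.30%. So LAMA5 was the main alpha chain in 4 samples, and LAMA1 in hemizygous sample 1 and wild-type sample 1. Within type V collagen, COL5A1 made up 10.7% and 14.7% in homozygous, 7.16% and 16.9% in hemizygous and 6.34% and 21.9% in wild-type samples, and COL5A2 made up 84.1% and 77.1%, 91.2% and 76.1%, and 92.3% and 72.5%. Within type IV collagen, COL4A1 made up 42.1% to 48.5% and COL4A2 30.6% to 34.9% over the 6 samples, with the COL4A1 share higher and the COL4A2 share lower in sample 1 of every genotype. LAMC1 made up 74.0% to 79.5% of the gamma chains. Type VI collagen was 72.2% to 76.3% COL6A1, while COL6A3, the long chain of its trimer, reached 0.301% and 0.327% in homozygous, 0.842% and 0.346% in hemizygous and 0.749% and 0.345% in wild-type samples. COL6A3 itself was at 8.35 and 8.62 CPM in the homozygous, 17.2 and 9.58 CPM in the hemizygous and 16.3 and 9.01 CPM in the wild-type samples.

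**Figure D5:**
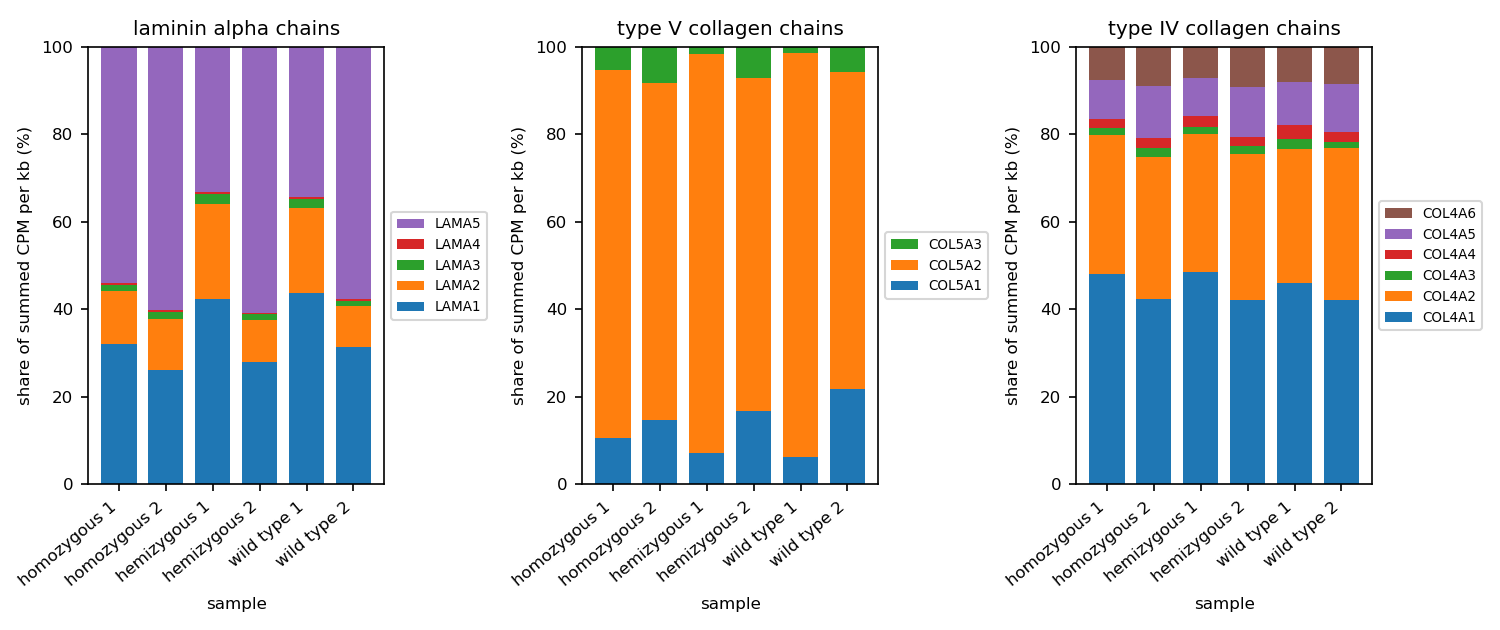
Share (%) of each chain in the summed CPM per kb of its family, per sample, for laminin alpha, type V and type IV collagen chains. LAMA5 (purple) is at 33.0% in hemizygous sample 1 and 34.4% in wild-type sample 1, against 54.0% to 60.7% in the other samples, and COL4A1 lies between 42.1% and 48.5%, higher in sample 1 of every genotype.

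Genes that build, bind or cut the matrix were read from lists chosen with earlier results of these data known. In the genotype comparisons edgeR called 0 genes of all 6 lists. The counts that follow are read against the 12.0% of all genes that were higher and the 8.5% that were lower in replicate 1. Of 18 collagen and laminin receptors, 7 were higher and 2 lower. ITGB1, the beta chain of most matrix integrins, was at 529 and 375 CPM in the homozygous, 746 and 398 CPM in the hemizygous and 776 and 448 CPM in the wild-type samples. BCAM, a receptor for LAMA5-bearing laminins, was lower in replicate 1 (-0.44, edgeR adjusted p = 0.0432), as LAMA5 was. Of 14 basement membrane partners 5 were higher, among them NID1, the nidogen that links laminin to type IV collagen, and FRAS1 and FREM2. Of 19 other matrix glycoproteins and proteoglycans 6 were higher and of 14 proteases and inhibitors 4, with none lower in either list.

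Of 11 genes of the EMT and TGF-beta response, 7 were higher in replicate 1 and 0 lower, where 12.0% and 8.5% of all genes were. CCN2, a matricellular growth factor, was at 25.8 and 23.3 CPM in the homozygous, 55.5 and 21.1 CPM in the hemizygous and 64.3 and 22.03 CPM in the wild-type samples. CCN2 was high in the libraries in which COL12A1 and TAGLN were high. Among 29 enzymes and chaperones that modify collagen, 3 were higher (PLOD2, COLGALT2 and LOXL3) and 3 lower (P3H3, LOXL1 and ADAMTS2), near the shares of all genes. PLOD2 was at 88.4 and 54.7 CPM in the homozygous, 88.9 and 55.7 CPM in the hemizygous and 91.5 and 49.1 CPM in the wild-type samples (edgeR adjusted p = 0.0120). SERPINH1, the collagen chaperone, stayed between 625 and 676 CPM, and P4HB, a subunit of prolyl hydroxylase, between 408 and 462 CPM.

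Of the 24 cell type markers in the table, 3 were higher and 1 lower in replicate 1, where 12.0% and 8.5% of all genes were. MYOCD, TEK and AFP were higher (edgeR adjusted p = 0.0328, 0.0214 and 0.0319) and LMOD1 was lower (0.0352). MYOCD, a smooth muscle coactivator, was at 2.62 and 2.34 CPM in the homozygous, 8.53 and 2.35 CPM in the hemizygous and 9.70 and 2.46 CPM in the wild-type samples. The 5 of 6 smooth muscle markers listed summed to 29.9 and 35.1 CPM in the homozygous, 40.3 and 37.5 CPM in the hemizygous and 45.0 and 35.3 CPM in the wild-type samples, and MYH11 was not analysed here. TEK, an endothelial receptor, was at 27.1 and 21.2 CPM in the homozygous, 83.3 and 23.6 CPM in the hemizygous and 67.7 and 27.2 CPM in the wild-type samples. TIE1 and VWF were listed and not called, while PECAM1 and CDH5 were not analysed here. The 3 endothelial markers listed had a median log2 fold change of 0.10 and summed to 35.4 and 28.0 CPM in the homozygous samples. Their sums were 92.1 and 30.9 CPM in the hemizygous and 73.7 and 34.8 CPM in the wild-type samples, most of it TEK. AFP, the only one of 8 endoderm markers listed, was at 1.30 and 1.11 CPM in the homozygous, 4.41 and 1.02 CPM in the hemizygous and 4.03 and 0.742 CPM in the wild-type samples. Of the trophoblast and neural lists, 1 of 6 and 3 of 6 genes were listed, at summed levels of 6.34 to 10.5 CPM and 24.3 to 35.0 CPM. The part of these markers in the replicate difference was not tested.

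Fold changes of genes with and without the miR-29 match are given as a description, with no test. In homozygous against wild-type samples the median log2 fold change was -0.22 for the 28 with a match and -0.15 for the other 27, against -0.051 and -0.012 over all genes. In hemizygous against wild-type samples it was -0.033 with and 0.029 without a match, against 0.0010 and -0.0043 over all genes. Among the fibrillar collagens, which all held the match, the highest and lowest of homozygous against wild type were COL5A3 at 0.63 and COL5A2 at -0.77.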

How the data were processed

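Total RNA was extracted with Trizol and made into libraries with the TruSeq RNA Library Prep Kit v2, per the labels' protocols. Reads were trimmed with cutadapt and aligned to hg38 with HISAT2, per the submitters' processing notes. Neither the counting program and annotation nor any tool version is stated in these sources. The deposited values are raw whole-number counts per gene, and every gene listed exceeds 0.5 CPM in at least 3 samples. Because the kit does not mark strand, reads of overlapping genes on opposite strands cannot be told apart. This touches ACTA2, COL18A1, COL9A3, LAMA5, LAMB1, LOX, TAGLN and VIM through opposite-strand genes that are listed with counts. COL15A1, COL16A1, COL4A2, COL4A3, COL5A3, COL9A1, LAMA1, LAMA2, LAMA4 and SPARC overlap opposite-strand genes that are not listed with counts. LAMB2 may share reads with its pseudogene LAMB2P1.

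Counts were fitted over all 16199 genes and 6 samples with edgeR 4.0.16 (R 4.3.3): TMM scaling, filterByExpr by group, and a quasi-likelihood test at 0.05 after Benjamini-Hochberg adjustment, with 3 degrees of freedom for the spread. Replicates were compared with genotype and replicate number as terms. edgeR reports no SE, so each SE given was derived as the absolute log2 fold change over the square root of the test's F statistic. DESeq2 1.42.0, limma 3.58.1 (voom), other scalings and filters and samples left out were alternatives. Same-numbered samples deviated together (correlations 0.476 homozygous with hemizygous, 0.357 homozygous with wild type, 0.741 hemizygous with wild type). The numbers were treated as a pairing only in the replicate comparison and in the alternative fits with a replicate block. The main genotype tests were not paired and had genotype as their only term. The meaning of the numbers is unstated in the labels. Replicates differed beyond sampling noise (chi-square per degree of freedom 41.7 to 90.3), so none was counted as a copy. Exon lengths (the union over all transcripts of a gene), 3′ UTRs and overlaps came from GENCODE 29. 

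The 55 genes and all lists were chosen with earlier results of these data known. Named in full were 21 fixed genes and, in each comparison, the 5 of lowest p. From the lists, the genes past the threshold and the 2 of highest level could be named. COL5A3, COL8A1, COL9A1 to COL9A3, COL27A1, LAMA2 and others given with a count of 7 or fewer were named after their values were seen. Results for some genes are not reported here.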

Additional observations from a re-analysis of the deposited data

How the results depend on the processing

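In the genotype comparisons COL23A1 in homozygous against wild-type samples was the only matrix gene called, by DESeq2 with the replicate block (1 of the 55). Directions of genes that were not called turned: over all alternatives the log2 fold change of homozygous against wild type ran from -3.89 to 0.33 for COL12A1, -1.47 to 0.095 for TAGLN and -1.33 to 0.18 for COL5A2, and that of hemizygous against wild type from -3.77 to 3.64 for COL12A1. Genes called over the whole table numbered 10 by DESeq2 and 121 by DESeq2 with the replicate block for homozygous against wild type, 7 and 23 for hemizygous against wild type, and 10 and 24 for homozygous against hemizygous. With the replicate block in edgeR, the pairing by number, they were 0, 1 and 1, none a matrix gene, with 15, 2 and 10 of the 55 at an unadjusted p under 0.05, against 1942, 616 and 1328 of all genes (12.0%, 3.8% and 8.2%). Leaving out each of the 6 samples gave 0 to 1, 0 to 2 and 0 to 3 genes in these comparisons, and 0 matrix genes.

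The medians moved with single samples. When samples were left out in turn, the fibrillar median ran from -0.38 to 0.012 for homozygous against wild type, -0.15 to -0.041 for hemizygous against wild type and -0.36 to -0.0092 for homozygous against hemizygous. The fibrillar minus basement membrane difference ran from -0.18 to 0.097, -0.17 to 0.040 and -0.22 to 0.011. Without wild-type sample 1 and hemizygous sample 1 together, chosen after seeing the data, 21, 12 and 16 genes were called and 0 matrix genes. The fibrillar medians were then 0.012 for homozygous against wild type and -0.0096 for homozygous against hemizygous, with differences from the basement membrane median of 0.097 and -0.015. A lone sample was assumed to vary like the other groups.

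For replicate 1 against replicate 2, leaving out the homozygous samples gave 6252 genes and 34 of the 55. Leaving out the hemizygous samples gave 2 genes and 0 of the 55, with a fibrillar minus basement membrane difference of -0.25, and leaving out the wild-type samples gave 0 and 0. These fits hold 4 samples, and the cause was not tested. DESeq2 called 23 and limma-voom 21 of the 55, of which 19 and 20 were among the 20 of edgeR, against 19.6% and 21.1% of all genes. Genes near 1 CPM, such as POSTN and COL20A1, also carry counting error.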
